A study of Mus musculus with 8 samples.

Results

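Potassium channel genes were followed across every annotated cell type of the developing cerebellar paraflocculus/flocculus (PF/F) and of the petrous temporal bone (PTB) that surrounds it. The members were all genes whose symbol consists of Kcn, lower-case letters and a number, which gave 92 of the 32285 features in the deposited count tables. By their symbols, 40 encode voltage-gated subunits (Kv), 15 inward rectifiers (Kir), 14 channels with paired pore domains (K2P), 8 calcium- or sodium-activated channels, and 15 accessory subunits without a pore of their own. Nuclei were isolated from wild-type (WT) mice and from Tbx1+/- littermates, which carry 1 functional copy of the transcription factor gene Tbx1, at postnatal day 5.5. The Tbx1+/- line had been backcrossed onto C57BL/6J, the mutant allele is not confined to a cell type, and mice of both sexes were used in the study. Each tissue and genotype had 2 libraries, 1 from each of 2 batches of animals, and each library pooled nuclei of 5 mice. Replicates 1 and 2 of the labels are taken here as batches 1 and 2, which the labels do not state. The 8 libraries were therefore the replicates, and levels are given as mean ± SD over the 4 libraries of a tissue.

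Potassium channels let potassium leave or enter the cell down its gradient and thereby set the resting potential, shape the action potential and clear potassium from the surroundings. Kv channels open on depolarization, Kir channels pass inward current more readily than outward current, and K2P channels carry background current. Calcium-activated channels couple intracellular calcium to the membrane potential, while accessory subunits change the gating and trafficking of the pore-forming ones. Cerebellar granule and Purkinje neurons are classic preparations for these currents, and osteoblasts, osteoclasts, chondrocytes and the stria vascularis of the inner ear, which lies within the petrous bone, use them as well.

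All pore-forming members share a short selectivity filter, and its coding sequence is shown here for members of each pore type on which the results below turn. The 30 bases are written 5′ to 3′ on the coding strand of the longest coding transcript (GRCm38 sequence, GENCODE vM21 gene models), and capitals mark the 15 bases of the filter signature. That signature was a codon for threonine or serine, then 1 for valine, isoleucine, leucine or methionine, then glycine, then tyrosine, phenylalanine or leucine, and then glycine, searched in frame on the coding strand only.
Kcnd2 (Kv, chr6:21217397-21714147, plus strand, split by an intron): accatgacaACACTGGGGTATGGCgacatg
Kcnb2 (Kv, chr1:15710037-15710066, plus strand): accatgaccACTGTGGGCTACGGTgacatt
Kcnma1 (calcium-activated, chr14:23528407-23528436, minus strand): acaatgtctACAGTGGGTTATGGGgacgtt
Kcnj6 (Kir, chr16:94832771-94832800, minus strand): acagaaaccACCATCGGTTATGGCtaccgg
Kcnj8 (Kir, chr6:142566442-142566471, minus strand): gttcaagtgACCATTGGGTTTGGAgggaga
Kcnj10 (Kir, chr1:172369293-172369322, plus strand): tcccagaccACCATCGGCTATGGCttccgc
Kcnk13 (K2P, first site, chr12:99966265-100061015, plus strand, split by an intron): gtggtttctACCATAGGGTTTGGGatgaca

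The signature was found in 77 of 77 pore-forming members and in 0 of the 15 accessory members, and in 231 of 21299 other genes with a coding sequence (1.08%). Of the 14 K2P members, 12 held it at least 2 times, as Kcnk13 does.

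Each deposited value was the number of distinct RNA molecules, told apart by unique molecular identifiers (UMIs), that a barcode held for a gene. PF/F libraries held 44713226 to 60627200 UMIs and PTB libraries 66835028 to 88677309. The annotation used here covered 48237 nuclei of 16 types in the PF/F and 31076 nuclei of 15 connective tissue, cartilage and bone types in the PTB, with median depths of 2610 to 3503 and 3853 to 4758 UMIs per nucleus. Among PF/F marker lists, those for Purkinje cells, granule neuron progenitors (GNP), oligodendrocytes, astroglia, immune, endothelial, pericyte and meningeal cells were each highest in the type of that name, and the GABA interneuron list in Diff.GABA.interneuron. The chondrocyte, osteoblast, osteocyte and osteoclast lists were likewise highest in the PTB types named for them. The hypertrophic list was not, since it reached 242 ± 89.6 CPM (counts per 1000000 UMIs of a type in a library) in Matured chondrocyte and 44.3 ± 31.1 in hypertrophic chondrocyte/Osteoblasts. Pairs of libraries shared at most 94 barcodes.

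Potassium channel genes made up 1.28% of the UMIs of annotated PF/F nuclei and 0.274% of those of annotated PTB nuclei. Of the 92 members, 92 had a UMI in the PF/F and 91 in the PTB, and 71 and 66 reached the 100 UMIs required for ranking across types. Kcnj5 had 0 of 152806173 UMIs in annotated PTB nuclei, which allows a level of up to 0.0196 CPM, counting error only. A few genes held most of the signal, since the top 5 members took 71.3% of member UMIs in the PF/F and 73.3% in the PTB. The make-up differed between the annotated nuclei of the tissues. Kv genes took 58.7% of member UMIs in the PF/F and 44.9% in the PTB, whereas calcium- or sodium-activated channels took 5.18% and 38.3%. Of the 160636 UMIs of calcium- or sodium-activated channels in the PTB, Kcnma1 alone held 137363. Kir genes took 8.0% in the PF/F and 1.52% in the PTB, K2P genes 3.83% and 2.75%, and accessory genes 24.3% and 12.5%. Barcodes without an annotated type are left out of these shares. They held 55.3% of all member UMIs in the PTB but 34.0% of those of Kcnma1.

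The counts include intron reads. Members spanned 1.90 kb (Kcna3) to 1135.41 kb (Kcnip4), with a median of 32.2 kb against 12.3 kb for all features, and across members the rank correlation of span with UMIs was 0.75 (92 genes) in the PF/F and 0.63 (91 genes) in the PTB. After division by span it was 0.33 and -0.053. Elsewhere, CPM, ranks by UMIs and the UMI shares of subfamilies are not corrected for span. Within this paragraph the levels of single genes are compared per kb of gene span. The median span was 121.6 kb for calcium- or sodium-activated channels and 24.2 to 36.3 kb for the other subfamilies. By that measure Kcnd2, a pore subunit of the A-type current, was the highest member in the PF/F at 5.21 CPM per kb, and it was first by UMIs too. Kcnj13, an inward rectifier of transporting epithelia, was at 3.55. Kcnip4, a cytoplasmic partner of the A-type pore subunits, was second by UMIs but eighth per kb at 2.29. In the PTB the order per kb was Kcnj13 at 1.97, Kcne4 at 1.497, Kcnma1 at 1.24 and Kcnq5 at 1.03. The small genes Kcnj13 and Kcne4 lie wholly within genes of the opposite strand (Gigyf2 and the noncoding Gm29536), and how strand was treated in counting is not given in the sources used here.

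Summed over all 92 members, the potassium channel level was highest in Diff.Granule Neuron of the PF/F. The 4 libraries, in the order WT and Tbx1+/- of batch 1 and WT and Tbx1+/- of batch 2, stood at 19173, 19286, 23701 and 23758 CPM. GABA.interneuron stood at 10840 ± 1296 CPM, Purkinje at 10271 ± 822 and Progenitors at 9523 ± 1077. The glial, vascular, meningeal and immune types lay between 8733 ± 846 in Oligodendrocyte and 3043 ± 1041 in Endothelial. Diff.Granule Neuron did not overlap any other type, but 12 of the 15 neighboring pairs in this order did. Both libraries of batch 2 lay above both of batch 1 in 11 of the 16 types, with each genotype present in each batch. The annotated types come from clustering the same nuclei, so levels across types are descriptions without a test.

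**Figure D1:**
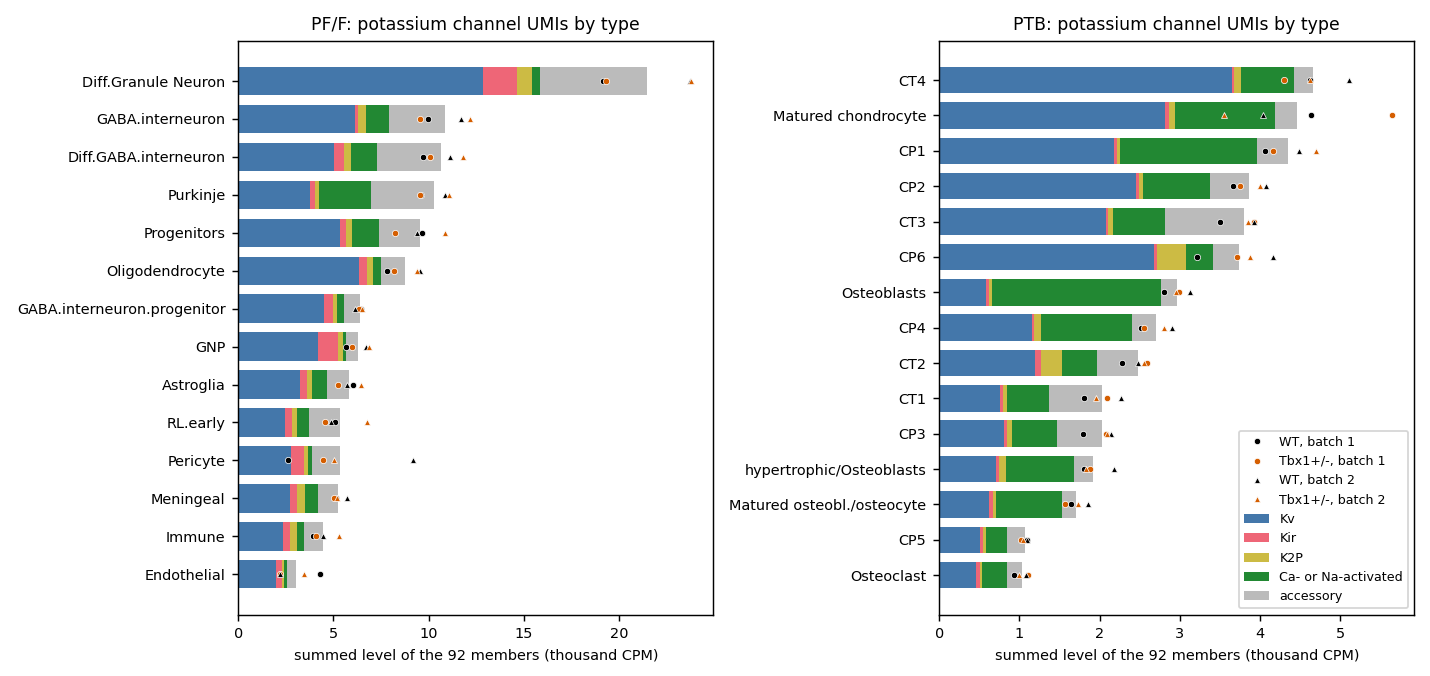
Summed level of the 92 members (in units of 1000 CPM, linear axis from 0) in 14 types of the PF/F (left) and 15 of the PTB (right), with bars for the mean of 4 libraries divided by subfamily and symbols for the single libraries. Diff.Granule Neuron stands at 21480 CPM in the PF/F, and the Osteoblasts bar of the PTB is mostly calcium- or sodium-activated channels (70.9%).

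In the PTB the summed level ran from 4661 ± 334 CPM in CT4, a connective tissue subtype, and 4463 ± 903 in Matured chondrocyte to 1064 ± 38.2 in CP5, a chondrocyte progenitor subtype, and 1026 ± 80.8 in Osteoclast. The first and last types differed 4.54-fold, against 7.06-fold in the PF/F, and 11 of 14 neighboring pairs overlapped. Calcium- or sodium-activated channels made up 70.9% of the member level in Osteoblasts and 14.2% in CT4, where Kv genes took 78.2%. These shares rested on few genes. In Osteoblasts, Kcnma1 was at 1977 ± 104 CPM and Kcnt2, the next of its subfamily, at 108 ± 6.01. In CT4, Kcnq3 was at 1071 ± 235 CPM and Kcnq5 was higher still. Accessory genes reached 32.6% in CT1. In the PF/F the calcium- or sodium-activated share was greatest in Purkinje (26.7%) and was 1.86% in Diff.Granule Neuron.

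For single members, the type with the highest mean level stood above the second type in all 4 libraries for 28 of 71 ranked members in the PF/F, where 22.2% of all genes did so, and for 22 of 66 in the PTB, where 21.5% did. The median ratio of the highest type to the median type was 5.55 for members and 2.72 for all genes in the PF/F, and 3.38 and 1.84 in the PTB. A ratio above 10 was seen for 15 members in the PF/F (21.1%, against 17.0% of all genes) and for 14 in the PTB (21.2%, against 6.58%). Purkinje was the highest type for 12 members (8 without overlap), Diff.Granule Neuron for 10 (6 without overlap) and Progenitors for 9 (2 without overlap). Progenitors held only 152 nuclei, with 20 in its smallest library. Some of its members, Kcna6 among them, moved to another type without the 8% of barcodes with most UMIs. In the PTB, Matured chondrocyte was highest for 10 members, none of them without overlap, CT2 for 9 (4 without overlap) and Osteoclast for 7 (3 without overlap). The share of all genes highest in each type was not computed, so these counts per type have no background beside them. The highest type stayed the same under every alternative tried for 41 members in the PF/F and 37 in the PTB. The other 30 and 29 changed it in at least 1, among them Kcna1, Kcna6, Kcnh1 and Kcnj8 of the 28 without overlap.

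**Figure D2:**
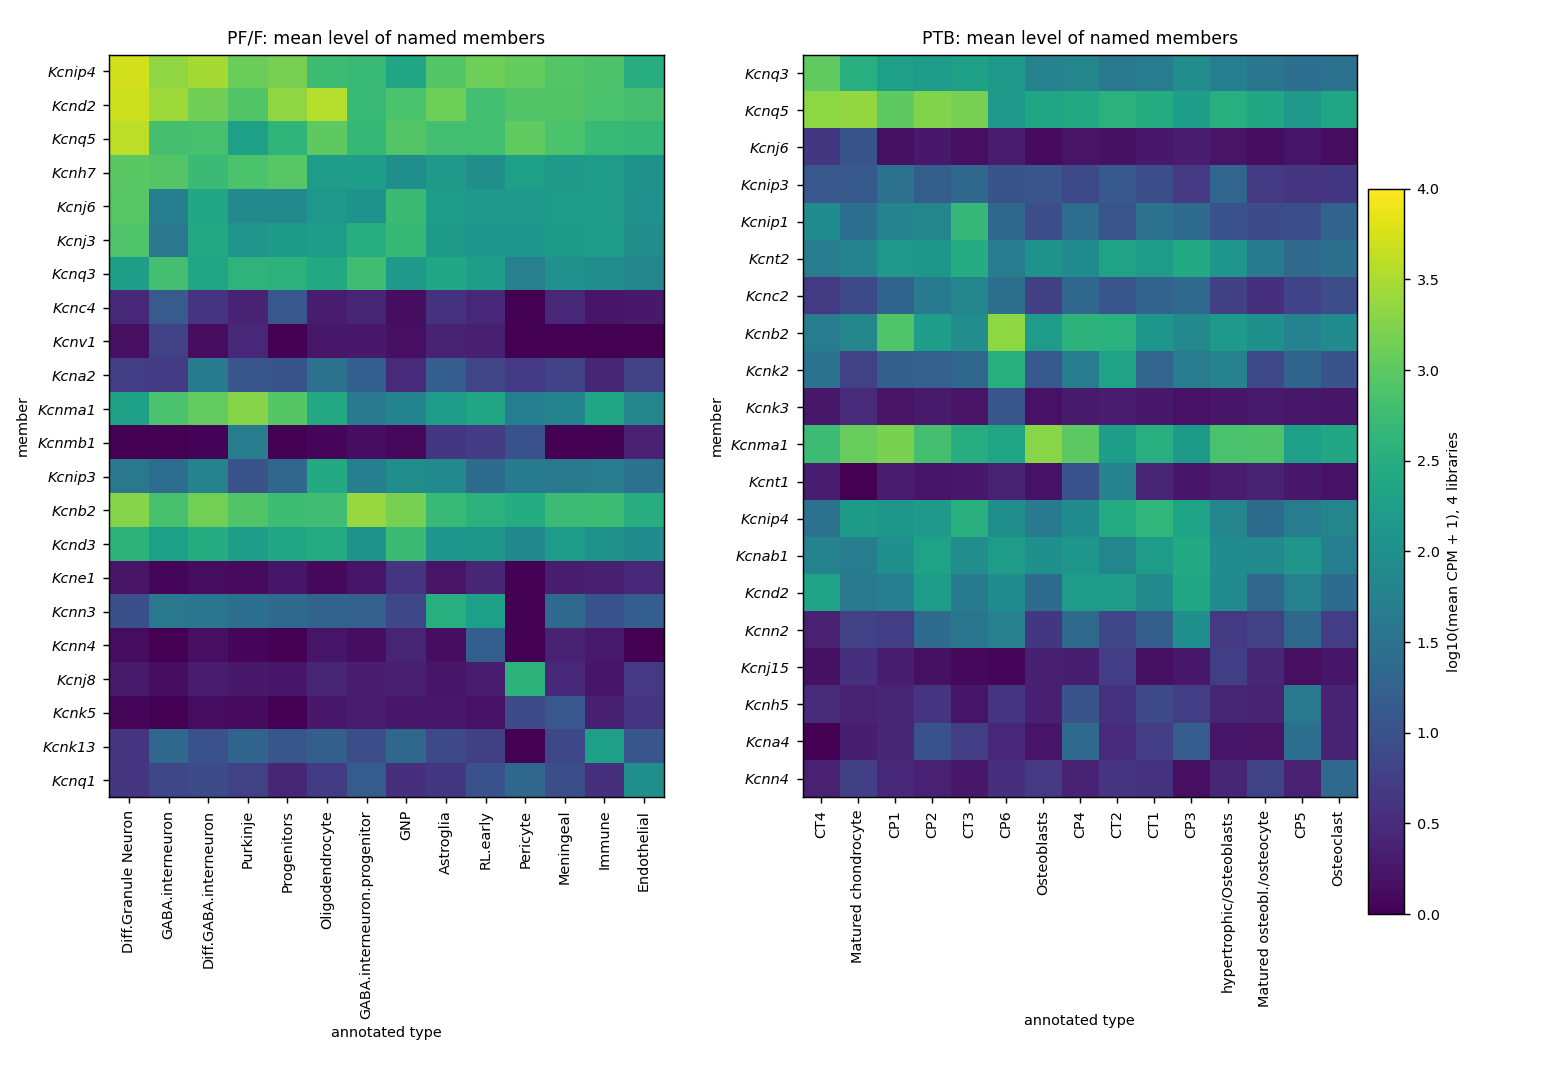
Mean level (color, log10 of mean CPM + 1 over 4 libraries) of selected members in 14 types of the PF/F and 15 of the PTB, with types ordered by summed level and members by their highest type shown. Kcnd2, Kcnip4, Kcnq5 and Kcnb2 are high in most PF/F types, whereas Kcnj8 and Kcnk13 are high in 1 non-neuronal type each.

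Among Kv genes of the PF/F, Kcnd2 was at 4220, 4442, 5486 and 5655 CPM in Diff.Granule Neuron, at 3608 ± 595 in Oligodendrocyte and at 512 ± 184 in GABA.interneuron.progenitor. Diff.Granule Neuron and Oligodendrocyte overlapped, and all libraries of GABA.interneuron.progenitor lay below both. Kcnq5, a subunit of the muscarine-sensitive M-current, was highest in Diff.Granule Neuron, at 3530, 3703, 4282 and 4293 CPM. Every one of these lay above every library of every other type, and Purkinje was lowest at 189 ± 34.4. Its relative Kcnq3 had another order, with 639 ± 121 CPM in GABA.interneuron and 590 ± 69.5 in GABA.interneuron.progenitor. Kcnb2, a delayed rectifier subunit, reached 2417 ± 389 CPM in GABA.interneuron.progenitor and 1883 ± 229 in Diff.Granule Neuron, and these types overlapped. Kcnh7, of the ether-a-go-go-related family, was at 959 ± 170 CPM in Diff.Granule Neuron. Kcnd3, the second A-type pore subunit, was highest in GNP at 526 ± 52.2 CPM, above Diff.Granule Neuron (378 ± 20.5) in all libraries.

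Of the Kv genes known from fast-spiking neurons, Kcnc1, a Kv3 pore subunit, was at 118.2, 114.6, 126 and 123.2 CPM in Diff.Granule Neuron, above Purkinje (82.6 ± 6.73 CPM) in each library. Of the axonal Kv genes, Kcna1 was at 41.1 ± 1.35 CPM in Purkinje and Kcna2 at 45.7 ± 2.03 CPM in Diff.GABA.interneuron. Neither overlapped any other type in these libraries, and Oligodendrocyte (30.1 ± 4.03 CPM) came next for Kcna2. Kcnv1, an electrically silent modulatory subunit, and Kcnc4 were highest in GABA.interneuron, at 5.03 ± 3.23 and 12.9 ± 3.98 CPM, on only 13 and 36 UMIs there.

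Among Kir genes, Kcnj6 and Kcnj3 encode the subunits of the G protein-gated channel that neurotransmitters open through inhibitory receptors. In Diff.Granule Neuron, Kcnj6 was at 844.7, 902.3, 928.7 and 962.6 CPM, above the 534 ± 40.6 of GNP in every library. Kcnj3 was at 793 ± 127 CPM there and at 37.5 ± 22.1 in GABA.interneuron. Kcnj10, the main potassium-buffering channel of astrocytes, was highest in Astroglia (45.2 ± 3.10 CPM) without overlapping Oligodendrocyte (29.3 ± 5.82). Its partner Kcnj16 was highest in RL.early, the early rhombic lip type, at 26.6 ± 5.12 CPM, above Oligodendrocyte at 18.2 ± 1.27. Kcnj8, the pore of the ATP-sensitive channel of vascular mural cells, was at 258.2, 469, 266.5 and 517.7 CPM in Pericyte. The next type, Endothelial, was at 3.57 ± 7.13 CPM. The ratio of Pericyte to the mean of the other types, 310.3, was the largest of any ranked member in either tissue, although Pericyte held only 12 to 25 nuclei per library and 84 Kcnj8 UMIs. Kcnj2, a strong inward rectifier, was at 31.8 ± 16.2 CPM in Endothelial and 14.5 ± 8.61 in Immune, and these overlapped. Kcnj13 differed little between types, from 41.3 ± 11.6 CPM in Meningeal to 16.2 ± 12.2 in Pericyte. The choroid plexus list, for the epithelium in which Kcnj13 is best known, was highest in RL.early at only 96.7 ± 11.8 CPM.

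Among K2P genes, Kcnk2, a mechano- and lipid-sensitive background channel, was at 311 ± 49.4 CPM in Meningeal, 275 ± 12.5 in Diff.Granule Neuron and 30.5 ± 5.91 in Purkinje. Kcnk9, an acid-sensitive background channel of granule neurons, was at 90.4 ± 7.40 CPM in Diff.Granule Neuron, 63.0 ± 4.03 in GNP and 5.68 ± 1.6 in Purkinje. Kcnk13, the background channel of microglia, was at 181, 152.4, 213 and 188.7 CPM in Immune. The highest other type was GNP at 20.6 ± 2.15 CPM, so every Immune library lay above every library of every other type. Of the other members known from immune cells, Kcna3 did not exceed 1.28 ± 1.53 CPM in any PF/F type, on 2 UMIs in Immune. Kcnn4 was highest in RL.early (14.8 ± 7.32 CPM). Kcnk5 reached 11.2 ± 5.62 CPM in Meningeal, where it rested on 29 UMIs.

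**Figure D3:**
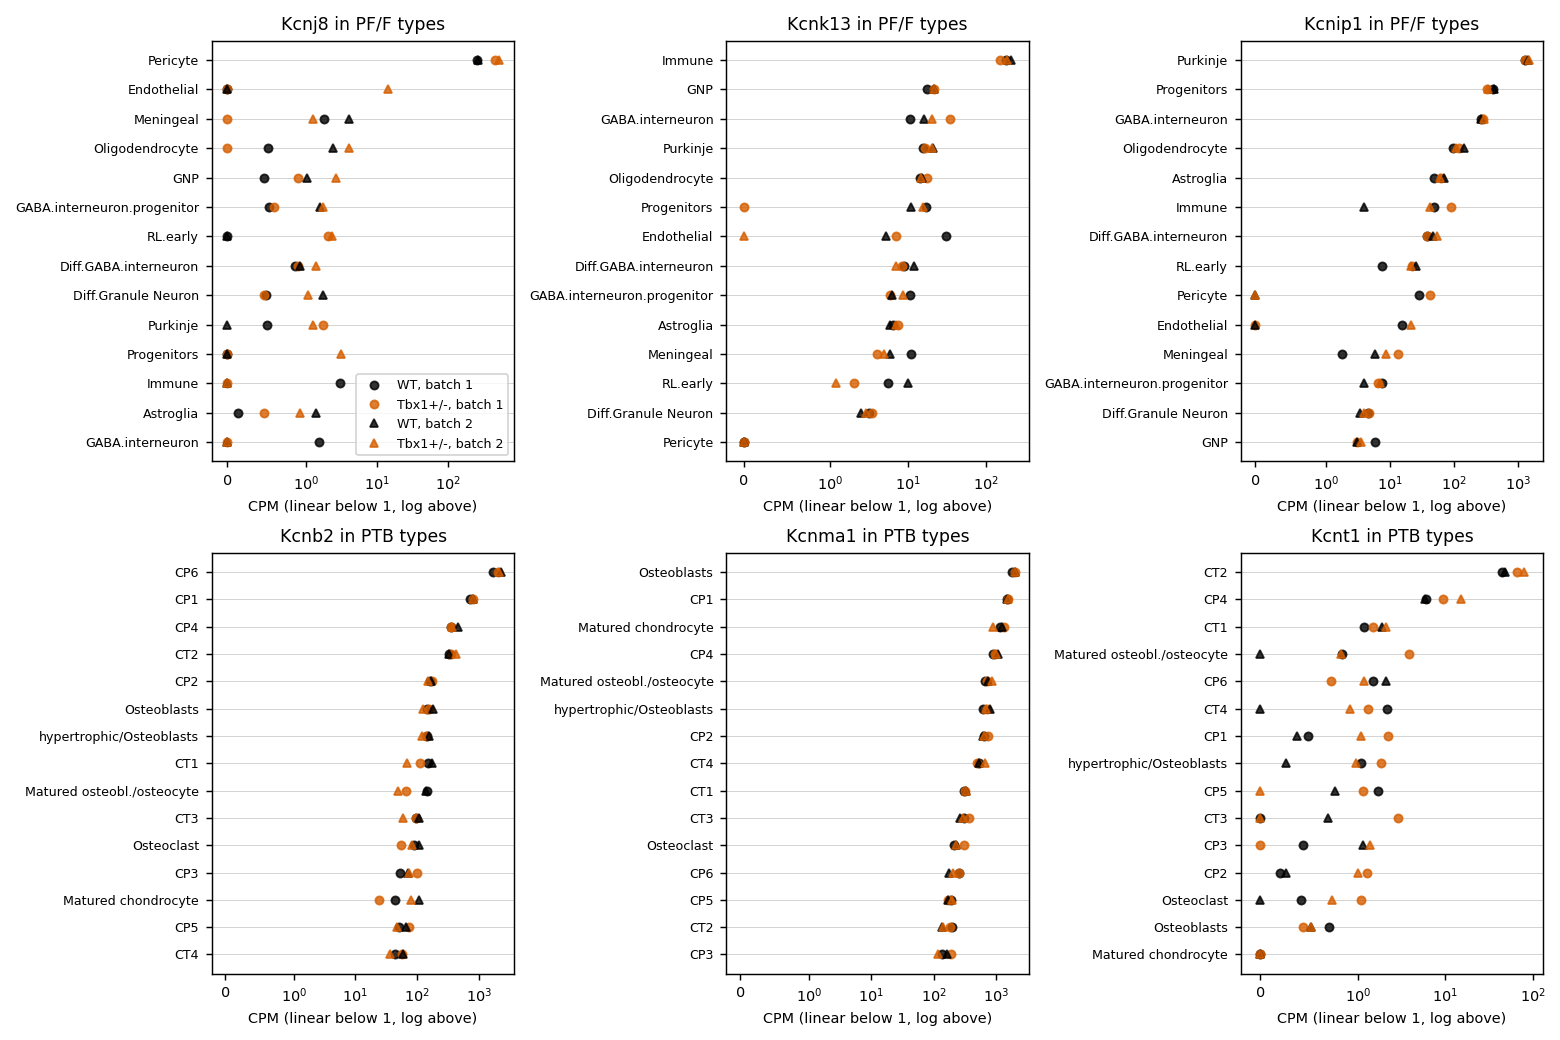
Level in CPM (linear below 1, logarithmic above) of 6 members in 14 types of the PF/F and 15 of the PTB, with 1 symbol per library, black for WT and orange for Tbx1+/-, circles for batch 1 and triangles for batch 2. Kcnj8 in Pericyte, Kcnk13 in Immune and Kcnt1 in CT2 lie apart from the other types in every library, whereas Kcnma1 declines gradually from Osteoblasts to CP3.

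Among calcium- or sodium-activated channel genes of the PF/F, Kcnma1, the large-conductance channel opened by calcium and voltage together, was at 1554, 1970, 2020 and 2066 CPM in Purkinje. Diff.GABA.interneuron followed at 1090 ± 183 CPM, below every Purkinje library. GABA.interneuron.progenitor was lowest at 39.3 ± 11.6. The small-conductance channel gene Kcnn2 was also highest in Purkinje (642 ± 81.3 CPM), but its relative Kcnn3 was highest in Astroglia, at 278.1, 313.6, 383 and 340.1 CPM. RL.early stood next at 179 ± 30.7 CPM, below all 4 Astroglia libraries. Kcnt2, a sodium-activated channel gene, reached 567 ± 113 CPM in Meningeal.

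Among accessory genes of the PF/F, Kcnip4 was at 4817, 4290, 6102 and 5780 CPM in Diff.Granule Neuron and at 236 ± 45.6 in GNP, from which granule neurons arise. Kcnip1, another partner of A-type subunits, was at 1271, 1273, 1451 and 1495 CPM in Purkinje, 376 ± 47.3 in Progenitors and 4.11 ± 0.60 in Diff.Granule Neuron. Kcnip3 was at 280 ± 27.6 CPM in Oligodendrocyte, and GNP followed at 93.4 ± 3.33. Kcnmb1, an auxiliary subunit of the large-conductance channel that is best known from smooth muscle, was at 49.1 ± 10.4 CPM in Purkinje. It lies within Kcnip1 on the opposite strand (chr11:33963013-33973641, against chr11:33629339-33993152), and both had the same highest type in each tissue. Kcnq1 and its partner Kcne1, best known from the heart and inner ear, were low in the PF/F. Kcnq1 was at 107.1, 90.94, 105.9 and 78.43 CPM in Endothelial, from 62 UMIs, and overlapped Pericyte, where 1 library with 3 UMIs reached 86.1 CPM and the others had 0. Kcne1 was at 2.95 ± 0.70 in GNP.

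In the bone, Kcnma1 was the member with the most UMIs and was highest in Osteoblasts, at 1822, 2017, 2044 and 2024 CPM. All 4 lay above CP1 (1550 ± 22.7 CPM), and CP3 was lowest at 152 ± 32.6. Kcnn4, the intermediate-conductance channel of blood-derived cells, was highest in Osteoclast at 22.4 ± 4.91 CPM, followed by Matured osteoblasts/osteocyte at 5.54 ± 3.45. Both sodium-activated channel genes were highest in connective tissue subtypes. Kcnt1 was at 44.8, 65.46, 48.09 and 78.45 CPM in CT2 and at 9.12 ± 4.33 in CP4, the next type, and Kcnt2 was at 300.5 ± 19.1 CPM in CT3, which overlapped CP3 at 282 ± 42.7. Kcnn2 was highest in CP3 at 100.01 ± 29.5 CPM.

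Among Kv genes of the bone, Kcnq5 was at 2696, 3021, 1541 and 1642 CPM in Matured chondrocyte, at 2123 ± 80.6 in CT4 and at 1743 ± 169 in CP2. The 2 libraries of batch 1 were the high ones in Matured chondrocyte, so this type overlapped CT4. The same type had 1 library with 48 nuclei, and its erythroid markers varied (2007 ± 2849 CPM). Kcnq3 was at 1049, 807.4, 1380 and 1047 CPM in CT4, above Matured chondrocyte (319 ± 104 CPM) in each library. Kcnb2 was at 1715, 2082, 2280 and 2177 CPM in CP6, 794 ± 42.9 in CP1 and 387 ± 55.8 in CP4, with no overlap between these types. Kcnh5 (39.6 ± 13.1 CPM) and Kcna4 (28.2 ± 7.49) were highest in CP5, Kcnc2 in CT3 (67.3 ± 25.3) and Kcnd2 in CP3 (242 ± 63.1).

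The K2P genes Kcnk2 and Kcnk3 had the same highest type as Kcnb2. In CP6, Kcnk2 was at 325 ± 95.9 CPM, with CT2 next at 198 ± 32.5, and Kcnk3 was at 10.8 ± 0.92 CPM against 2.08 ± 2.83 in the next type. The neuron marker list was also highest in CP6, at 1660 ± 121 CPM, of which Syt1 made up 1625 ± 120, Snap25 30.4 ± 5.98 and Rbfox3 4.64 ± 2.25 CPM. Rbfox3 was higher in CP5 (12.2 ± 4.99 CPM) and Matured chondrocyte (10.1 ± 9.95). Below CP6 the orders differed. Syt1 was at 404 ± 49.8 CPM in CP3, but at 67.2 ± 7.81 in CP1, next for Kcnb2, and 21.7 ± 6.03 in CT2, next for Kcnk2. The part of this list in the CP6 values was not tested.

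Among accessory genes of the bone, Kcnip1 was at 418.4, 457.6, 471 and 477.5 CPM in CT3 and 86.9 ± 31.7 in CT4, and Kcnmb1, within it, at 13.0 ± 5.87 in CT3. Kcnab1, which encodes a cytoplasmic subunit of Kv channels, was at 276 ± 20.3 CPM in CP3, above all other types, and Kcnip4 was at 426 ± 233 CPM in CT1. Kcnip4 in CT1 ranged from 197.5 to 630 CPM, with no order by genotype. Kcnj2, known from osteoclasts and bone development, was at 28.9 ± 9.98 CPM in CT2 and 10.6 ± 1.90 in Osteoclast. Kcnj15 did not exceed 4.55 ± 0.85 CPM, Kcnj6 10.0 ± 7.67, Kcne1 8.52 ± 4.56 and Kcnq1 10.7 ± 1.84 in any annotated PTB type.

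Few chromosomal neighbors could be compared for their highest type. Of 9 pairs of members within 100 kb, 3 had both genes ranked in each tissue, and 1 of these, Kcnip1 with Kcnmb1, had the same highest type. Kcnj9 and Kcnj10, 11.89 kb apart on chromosome 1, were highest in GABA.interneuron.progenitor and Astroglia of the PF/F. Kcna1 and Kcna6, 61.94 kb apart on chromosome 6, were highest in Purkinje and Progenitors of the PF/F and in CT2 and CT4 of the PTB. Without the 8% of barcodes with most UMIs, Kcna1 was highest in Progenitors and Kcna6 in Purkinje, so their PF/F types were not stable. The other pairs were Kcnj16 with Kcnj2, Kcnk5 with Kcnk16, Kcne2 with Kcne1, Kcna3 with Kcna2, Kcna2 with Kcna10 and Kcnj5 with Kcnj1.

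Between the tissues, which were separated by dissection rather than by clustering, the members could be tested. All barcodes with at least 1000 detected genes were summed per library, and 4 PF/F libraries were compared with 4 PTB libraries by edgeR's quasi-likelihood test with genotype as a term. A call required a Benjamini-Hochberg adjusted p under 0.05 over all 23414 genes and a change above 1.5-fold. Of 88 members tested, 45 were higher in the PF/F (51.1%, against 28.8% of all genes) and 18 were higher in the PTB (20.5%, against 29.5%). The median log2 difference was 0.67 for members and -0.0041 for all genes. Of the 63 called members, 61 had no overlap between the tissues, as did 95.5% of the 13650 called genes, and Kcna7 and Kcnmb3 did overlap. In such sums, fewer cells of a type and less RNA per cell cannot be told apart. Kcng4, Kcnj1, Kcnk15 and Kcnk16 were too low to be tested.

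**Figure D4:**
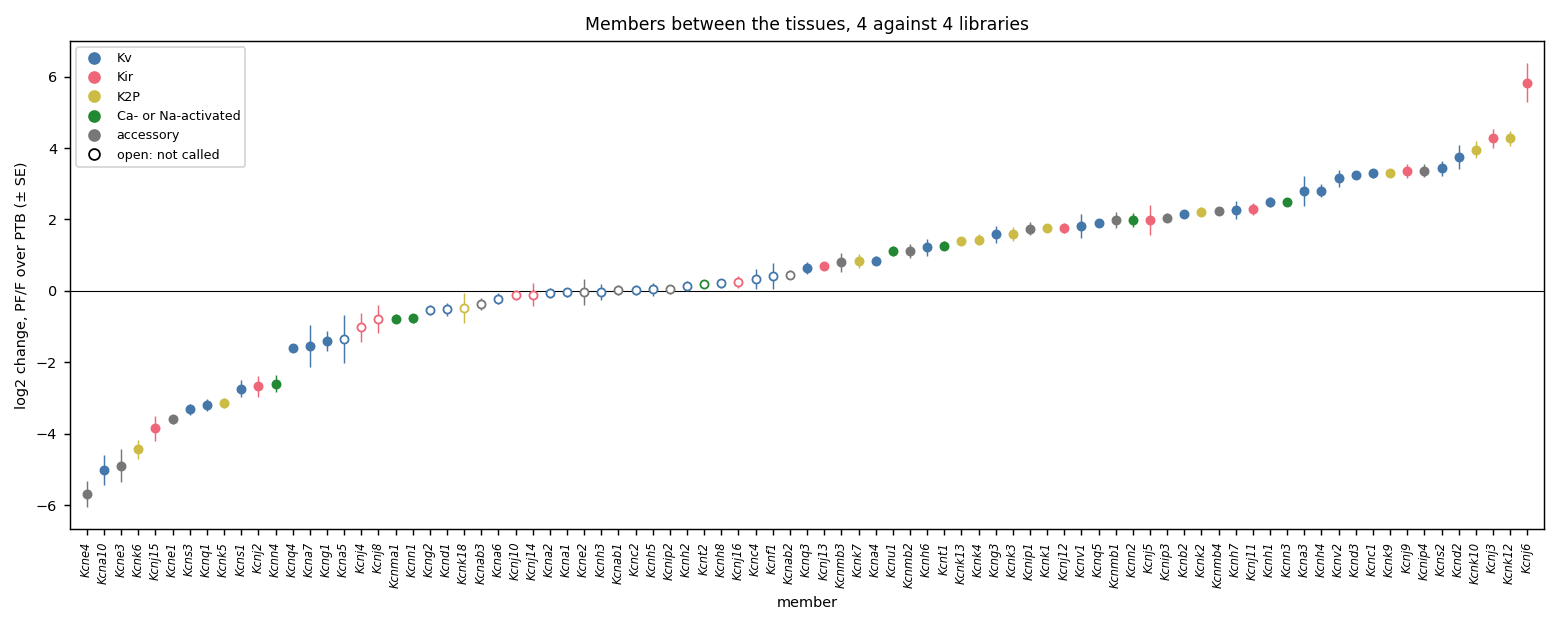
Log2 difference PF/F over PTB (± SE, edgeR, 4 against 4 libraries) of 85 tested members in ascending order, colored by subfamily, with open symbols where the difference was not called. The called differences run from -5.69 for Kcne4 to 5.83 for Kcnj6.

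Each subfamily had members in both directions. Of 39 Kv genes, 18 were higher in the PF/F and 8 in the PTB. For K2P genes it was 9 and 2 of 12, for Kir genes 7 and 2 of 14, for calcium- or sodium-activated channels 4 and 3 of 8, and for accessory genes 7 and 3 of 15. The largest difference toward the PF/F was that of Kcnj6, at 448.4, 496.5, 477.8 and 488.9 CPM in the PF/F libraries and 2.89, 4.72, 16.1 and 11.4 in the PTB libraries (log2 5.83 ± 0.55 SE, edgeR adjusted p = 1.98e-05). Kcnk12 (log2 4.27 ± 0.22), Kcnj3 (4.27 ± 0.26), Kcnk10 (3.96 ± 0.25) and Kcnd2 (3.74 ± 0.34) followed. Kcnd2 averaged 2604 ± 378 CPM in the PF/F and 201 ± 92.8 in the PTB. In the PTB libraries, Kcnj6, Kcnj3, Kcnk12, Kcnk10 and Kcnd2 were each higher in batch 2 than in batch 1. Of their PTB UMIs, 77.1% (Kcnd2) to 95.03% (Kcnj6) came from barcodes without an annotated type. Such barcodes with most UMIs of the neuron list numbered 234 and 278 in batch 1 and 425 and 303 in batch 2, and their part in the batch difference was not tested.

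The largest differences toward the PTB concerned members that the PF/F barely held. Kcne4, an accessory subunit of Kv channels, was at 5.35, 4.59, 2.93 and 4.19 CPM in the PTB libraries and at 0.0769 ± 0.0399 in the PF/F (log2 -5.69 ± 0.36). Kcna10 (-5.01 ± 0.42), Kcne3 (-4.89 ± 0.47), Kcnk6 (-4.44 ± 0.25) and Kcnj15 (-3.84 ± 0.35) came next, all with fewer than 100 UMIs in the PF/F. Kcne3 and Kcnj15, like Kcne4, lie wholly within genes of the opposite strand. How strand was treated in counting is not given in the sources used here. The inner ear pair was higher in the PTB as well. Kcnq1 was at 54.6 ± 8.95 CPM there and 5.75 ± 1.06 in the PF/F (log2 -3.20 ± 0.16), and Kcne1 at 11.4 ± 0.49 and 0.92 ± 0.14 (-3.59 ± 0.13). Kcnma1 was at 721.5 ± 56.1 and 407 ± 69.5 CPM (-0.78 ± 0.13, edgeR adjusted p = 0.000537). A list of 28 partners of potassium channels and potassium transporters had 14 members called higher in the PF/F (51.9%, against 28.8% of all genes) and 9 in the PTB (33.3%, against 29.5%) of 27 tested. They included Dpp6 (log2 3.30 ± 0.15), a partner of A-type channels, and the sulfonylurea receptor genes Abcc8 (3.38 ± 0.17) and Abcc9 (-3.25 ± 0.21).

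Between genotypes, no member was called in any type in the main test, which has no replicate block. Over all genes, that test gave an unadjusted p under 0.05 for 1.32% of tests in the PF/F and 1.81% in the PTB. With the block it was 4.37% and 3.93%. The main test thus passed fewer tests than its threshold allows where nothing differs. Its lack of calls therefore does not show that members were unchanged. In the PF/F, 14 types with at least 20 nuclei in every library gave 568 tests on 69 members. With edgeR, 0 were called, against 1 of 161523 tests on all genes (0.000619%), and DESeq2 called 0 as well. At an unadjusted p under 0.05, 3 member tests were higher in Tbx1+/- (0.612% of all tests) and 6 were lower (0.71%), and DESeq2 gave 2 such tests. The lowest adjusted p of a member was 0.999. Of the smallest unadjusted p values, Kcnk3 in Purkinje was at 7.07 and 7.18 CPM in WT and 2.88 and 1.85 in Tbx1+/- (log2 -1.63 ± 0.50), on 5 to 18 UMIs per library. Kcnn3 in GABA.interneuron.progenitor was at 12.3 and 7.12 CPM in WT and 18.8 and 25.4 in Tbx1+/- (1.14 ± 0.35). Kcnu1 in Diff.GABA.interneuron (1.41 ± 0.45), Kcnmb2 in GNP (-0.60 ± 0.22) and Kcnk3 in GABA.interneuron (-1.39 ± 0.55) were the others. These were picked by small p and by a sign shared by both batches. That WT and Tbx1+/- libraries did not overlap in each is therefore no added support. With 2 libraries against 2, an exact permutation test of 1 gene cannot give a p below 0.33.

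In the PTB, 15 types gave 478 tests on 59 members. Again 0 were called by edgeR, against 0% of 187198 tests on all genes, and DESeq2 called 0. At an unadjusted p under 0.05, 15 member tests were higher in Tbx1+/- (0.767% of all tests) and 14 lower (1.04%), a member counting once for each type, so that 6.07% of the member tests and 1.81% of all tests passed this mark, and DESeq2 gave 10. The lowest adjusted p of a member was 0.494 for Kcnb2 in Matured osteoblasts/osteocyte. There Kcnb2 was at 145.3 and 142.1 CPM in WT and 66.4 and 48.9 in Tbx1+/- (log2 -1.35 ± 0.20). It was lower in Tbx1+/- in both batches, but a shared sign was a condition for naming it. With the replicate number as a block, it was called (log2 -1.35 ± 0.19, edgeR adjusted p = 0.0192). The block called 71 of 187198 tests over all genes in the PTB. In the same type the osteoblast list was at 11773 and 4504 CPM in WT and 4988 and 5124 in Tbx1+/-, and its part in the Kcnb2 difference was not tested. The log2 difference of Kcnb2 was -0.75 ± 0.22 in CT1, -0.53 ± 0.22 in Osteoclast and 0.50 ± 0.22 in CP3, and none of these was called.

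Kcnc2 in CT3 was at 77.4 and 98.4 CPM in WT and 46.3 and 47.0 in Tbx1+/- (log2 -0.94 ± 0.21). It too was called with the replicate block (-0.93 ± 0.21, edgeR adjusted p = 0.0197). The block thus called 2 of 478 member tests in the PTB, against 71 of 187198 over all genes. In the PF/F it called 0 of 568 member tests, against 60 of 161523 over all genes. Counts this small do not set the tissues apart. Kcna2 in Osteoclast was at 1.25 and 0.775 CPM in WT and 7.35 and 5.90 in Tbx1+/- (2.66 ± 0.56), on 2 to 20 UMIs per library, while the Schwann glia list was at 209.8 and 127.8 CPM in WT and 301.1 and 146.6 in Tbx1+/-. Its part was not tested. Kcnq3 in Osteoblasts (-0.59 ± 0.12) and Kcnh8 in CP4 (1.87 ± 0.49) completed the 5 smallest p values. A test of whether the genotype difference itself differed between the tissues called 0 of 23414 genes (0%) and 0 members with edgeR and with DESeq2. At an unadjusted p under 0.05 were 0.752% of all genes and 2 members, and with DESeq2 0 members. The log2 change in Tbx1+/- was larger in the PF/F than in the PTB by 1.96 ± 0.68 for Kcna3, and for Kcnj14 that difference was -1.50 ± 0.45. Kcna3 had 97 UMIs in the PF/F and 20 in the PTB libraries, and Kcnj14 had 55 and 88.

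Finally, 24326 PTB barcodes with at least 1000 detected genes carried no type in the annotation used here, against 4123 in the PF/F. The study also distinguished immune cells and neurons in the bone, which that annotation leaves out, so these barcodes can include nuclei that the authors did assign to a type. They held 47.4% of the PTB UMIs and 55.3% of the members' UMIs. Grouped by the marker list with most UMIs in each barcode, they gave 16 members more than 4-fold above the highest annotated type in every library, and 0 in the PF/F. Among members with a UMI in an annotated type of every PTB library this was 16 of 87 (18.4%), against 5.64% of all such genes, and in the PF/F it was 0 of 86, against 0.00822%. Kcnq1, which with Kcne1 forms the channel that secretes potassium into endolymph, was at 1787, 2109, 2113 and 1958 CPM in the 369 barcodes of the strial marginal list (Esrrb and Bsnd). Kcne1 was at 380, 328, 324 and 372 CPM in those barcodes. No annotated type exceeded 10.7 CPM for Kcnq1 or 8.52 for Kcne1, and 93.8% and 77.7% of their PTB UMIs came from barcodes without a type. Not all of these UMIs were in barcodes of the strial marginal list. The 16 members passed the 4-fold mark in 32 pairs of member and list, over 12 lists. Kcnq1 also passed in the melanocyte or strial intermediate (349 ± 210 CPM), endothelial (148 ± 20.8), epithelial (141 ± 38.3) and osteoblast (87.9 ± 19.5) lists. In barcodes of the Schwann glia list, Kcna1 was at 251.0, 250.2, 253.5 and 258.8 CPM, against 7.89 in the highest annotated type.

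**Figure D5:**
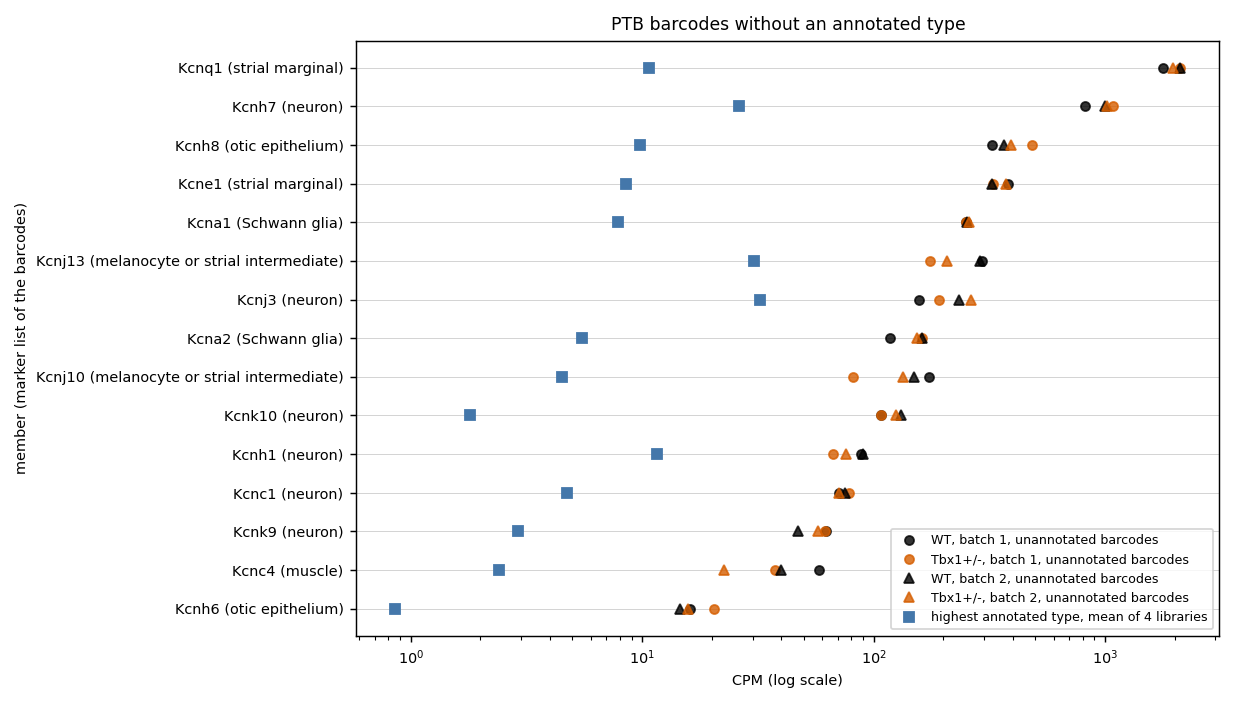
Level in CPM (logarithmic axis) of 15 members in PTB barcodes without an annotated type, grouped by marker list, with 1 symbol per library, and the mean of the highest annotated type as blue squares. Every library lies more than 4-fold above the square of its member, among them Kcnq1 in the strial marginal group (1787 to 2113 CPM). Each member is shown only for the list with its highest ratio to that square.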

How the data were processed

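RNA of single nuclei was captured in droplets and read near its 3′ end. The authors aligned reads to mm10 with Cell Ranger 7.0.0 in intron mode, and the deposited counts are raw UMIs per gene and barcode, without the SoupX correction for free RNA that the study applied later. Doublet removal is not described in the sources used here. Cell types and their barcodes are those of the authors' deposited annotation, which for the PTB holds the connective tissue, cartilage and bone lineages. UMIs were summed per library and type and scaled to 1000000 UMIs of that type in the library (CPM). Gene spans and coding sequences came from GENCODE vM21 (GRCm38), in which all 92 members were found.

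Members and lists were chosen with earlier results of these data known. Named were the member with the highest ratio over the other types in each type, the 10 members with most UMIs per tissue, up to 5 per tissue with the smallest genotype p whose sign was shared by both batches, members known for a cell type, the 5 largest tissue differences each way, members above 4-fold in unannotated barcodes, and neighbors within 100 kb. Kcnj14, Kcna7, Kcnmb3, Kcng4 and Kcnk15 were named after their values were seen. Types were ranked when they held at least 20000 UMIs in every library.

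Genotypes were compared within types, and tissues over all barcodes with at least 1000 detected genes, with edgeR 4.0.16 (filterByExpr, TMM, quasi-likelihood test) in R 4.3.3, beside DESeq2 1.42.0. The SE was the absolute log2 change over the root of its F statistic. The edgeR code was tested on simulated data. The study describes 2 batches of animals, and that the replicate numbers in the labels stand for them is an inference. Deviations of same-numbered libraries from their genotype mean correlated across genes at 0.775 in the PF/F and 0.579 in the PTB. The tests had no batch term, and a replicate block was an alternative. Others were RLE factors, no filter, 2000 detected genes, leaving out the 8% of barcodes with most UMIs or each library, 500 UMIs per ranked member, pooled UMIs, types with at least 20 nuclei, and the sum without its top member. Sums and levels were computed in Python 3.11.15 (pandas 2.3.3, numpy 2.4.6, scipy 1.17.1) and plotted with matplotlib 3.10.9. Some genes, cell types and sequences are not reported here.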

Additional observations from a re-analysis of the deposited data

Results flagged for a closer look

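Members with a level in unannotated PTB barcodes more than 4-fold above every annotated type stood out because they concern data that the comparisons of types did not use. The values are mean CPM of 4 libraries in barcodes with most UMIs of 1 marker list. In barcodes of the strial marginal list, Kcnq1 was at 1991.55 CPM and Kcne1 at 351.22 CPM. In those of the neuron list, Kcnh7, of the ether-a-go-go-related family, was at 980.34 CPM and the G protein-gated channel gene Kcnj3 at 211.69 CPM. The background channel genes Kcnk10 and Kcnk9 were at 118.04 and 57.17 CPM in the same barcodes, Kcnh1 at 80.13 and Kcnc1 at 73.67 CPM. In those of the Schwann glia list, the axonal channel genes Kcna1 and Kcna2 were at 253.4 and 148.69 CPM. In those of the melanocyte or strial intermediate list, Kcnj13 was at 241.92 and Kcnj10, the potassium channel of strial intermediate cells, at 134.5 CPM. Kcnh8 was at 392.03 CPM and Kcnh6 at 16.73 CPM in those of the otic epithelium list. Kcnc4 was at 39.48 CPM in those of the muscle list, where 1 library held 3 UMIs. Each member is given here for 1 list, but 16 members passed the 4-fold mark in 32 pairs of member and list. Kcnh8 also passed in the Schwann glia (261 ± 5.05 CPM), neuron (188 ± 24.3) and osteoblast (122 ± 46.9) lists, among others. Kcnh7 also passed in the osteoblast list (261 ± 138 CPM). The lists group barcodes by few genes and do not define cell types.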

How the results depend on the processing

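The tissue difference had 63 called members, and 60 to 64 under each alternative. Member genotype calls numbered 0 in both tissues with RLE factors, DESeq2 and 2000 detected genes. In the PF/F 1 call appeared without the 8% of barcodes with most UMIs (Kcnip4 in Progenitors, log2 2.90), and 0 to 1 when a library was left out, the 1 being Kcnip1 in Immune (3.88) without WT replicate 1. In the PTB 3 appeared without a filter (Kcnq3 in CP3, Kcnb2 in Matured osteoblasts/osteocyte, Kcnip4 in hypertrophic chondrocyte/Osteoblasts), 2 with the replicate block and 0 to 3 when a library was left out. Those were Kcnb2 without Tbx1+/- replicate 1 or WT replicate 2, and Kcnab1 in CP6, Kcnc2 in CT3 and Kcnip1 in Matured chondrocyte without WT replicate 1. A lone library was then assumed to vary like the others. Over all genes, calls went from 1 to 60 with the block in the PF/F and from 0 to 71 in the PTB, to 31 and 96 without a filter, to 20 to 236 in the PF/F and 29 to 613 in the PTB when a library was left out, and to 2 in the PF/F with DESeq2. The adjusted p of Kcnb2 in Matured osteoblasts/osteocyte ranged from 0.000183 to 1.00 over these alternatives. The block changed no other member call. The interaction had 0 calls under every alternative.

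Without the member with most UMIs, the summed level fell to 16529 CPM in Diff.Granule Neuron and to 4102 in CT4, by construction. At a minimum of 500 UMIs, 43 of the 66 ranked members in the PTB were still ranked. This minimum cannot change the highest type of a member, so these 43 kept theirs by construction. None of the 10 named genotype and 10 named tissue differences reversed. In each of these the compared groups of libraries did not overlap, so leaving out a library could not be expected to reverse the sign. The other alternatives used the same libraries. That no sign reversed is therefore no added support for these differences. Counting depth limits members below 100 UMIs, 21 in the PF/F and 26 in the PTB, and Pericyte with its 12 to 25 nuclei per library. It also limits Endothelial and Progenitors, whose smallest libraries held 15 and 20 nuclei. Uncorrected free RNA can add UMIs to every type.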
